A study of Mus musculus with 2 samples.

Results

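The basic helix-loop-helix (bHLH) transcription factors of the limb bud, with the E proteins that are their dimer partners, the Id inhibitors and the Hes and Hey repressors, were examined in wild-type and Bhlha9 knockout mouse embryos. The group was a list of 39 gene symbols defined by family membership, and it was drawn up with earlier results of these data known. Of these, 38 had at least 1 probe set annotated to a single gene symbol, out of 18193 such genes on the array, and they were read by 69 of the 45037 non-control probe sets. Bhlhe22 had none. RNA came from whole limb buds of C57BL/6 embryos at E10.5. The wild-type group and the Bhlha9 knockout group were 1 Affymetrix array each. Whether the knockout embryos were homozygous, how the allele was made, the number of embryos per RNA and the mix of fore and hind limb buds are not stated in the labels or design text.

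In a bHLH factor, the helix-loop-helix part joins 2 proteins into a dimer and the basic part of each contacts DNA at the E-box, CANNTG. E proteins are made in most tissues and pair with tissue-restricted factors such as Hand2, Twist1 or the neurogenins. Id proteins carry the helix-loop-helix without a basic part, so they hold E proteins in dimers that cannot bind DNA, and their genes are classical targets of BMP signals. Hes and Hey proteins are bHLH repressors that act downstream of Notch. In the early limb bud, Hand2 acts in the posterior mesenchyme upstream of Shh, Twist1 is needed in the mesenchyme for outgrowth, and Bhlha9 is expressed in the distal limb bud.

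Signals are MAS 5.0 intensities in arbitrary units, and a gene is represented by its brightest probe set. A signal under the 40th percentile of its array, 41.2 for wild-type and 41.8 for knockout, was treated as not detected and raised to that floor. Each log2 ratio was taken as the knockout value less the wild-type value. For a gene detected on 1 array only it is a bound, given as "at least". With 1 array per genotype no test was possible and no value has a biological error, so "higher" and "lower" describe these 2 arrays. The only error that could be read was between probe sets of 1 gene. Over 5440 genes the difference between the 2 brightest had a robust SD of 0.40, which corresponds to 0.28 for 1 log2 ratio. That 0.28 is called the SD between probe sets below. Markers of the labelled tissue were present, with 13 of 15 limb mesenchyme genes detected on both arrays. Their median log2 ratio was -0.86. The knockout array also carried markers of tissues next to the limb. The summed signal of 13 liver genes was 395 in wild-type and 35144 in knockout RNA, and that of 13 neuron genes was 3461 and 8651. In the surface ectoderm list, which belongs to the limb bud but also to other epithelia, 6 of 10 genes read 2-fold or more above wild type and 0 below it, and the median ratio over the 9 on both was 1.36. Over all genes detected on at least 1 array, 4.15% read that far above wild type and 2.65% below it. In the skeletal muscle list 4 of 10 detected genes read 2-fold or more above wild type and 1 below it, with 3 detected on the knockout array alone. Over the 7 on both, 1 read 2-fold or more above and 1 below, beside 2.87% and 2.51% of all genes detected on both. The ratios of these 7 were positive in 3 and negative in 4, with a median of -0.09. Dissection and genotype cannot be told apart with these 2 arrays.

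Of the 38 genes, 21 were detected on both arrays, 10 on the knockout array alone, 2 on the wild-type array alone and 5 on neither. Over all genes on the array, 5.29% were detected on the knockout array alone and 3.49% on the wild-type array alone, against 26.3% and 5.26% of the listed genes. Among the 21 detected on both arrays, the median log2 ratio was 0.04, beside -0.01 over all 11491 such genes. Of these 21, 11 ratios were positive and 10 negative. The genes Tcf21, Hey2 and Id4, 3 of the 21, were at least 2-fold higher and 0 were lower, against 2.87% higher and 2.51% lower over all genes detected on both. Adding genes at the floor on 1 array brought the count to 7 higher and 0 lower of 33, against 4.15% higher and 2.65% lower of 13088 genes. The 4 added genes, Hes5, Neurog2, Neurod1 and Neurod4, had a wild-type signal under the floor, so a negative ratio was not possible for them. With the floor at the 60th percentile 3 listed genes, Tcf21, Id4 and Neurod4, were still 2-fold or more higher, beside 1.64% of all genes detected there, and with it at the 20th there were 13, beside 11.3% of all genes. The split of 2-fold calls over all genes, 543 higher and 347 lower as deposited, was 638 and 260 after cyclic loess.

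**Figure D1:**
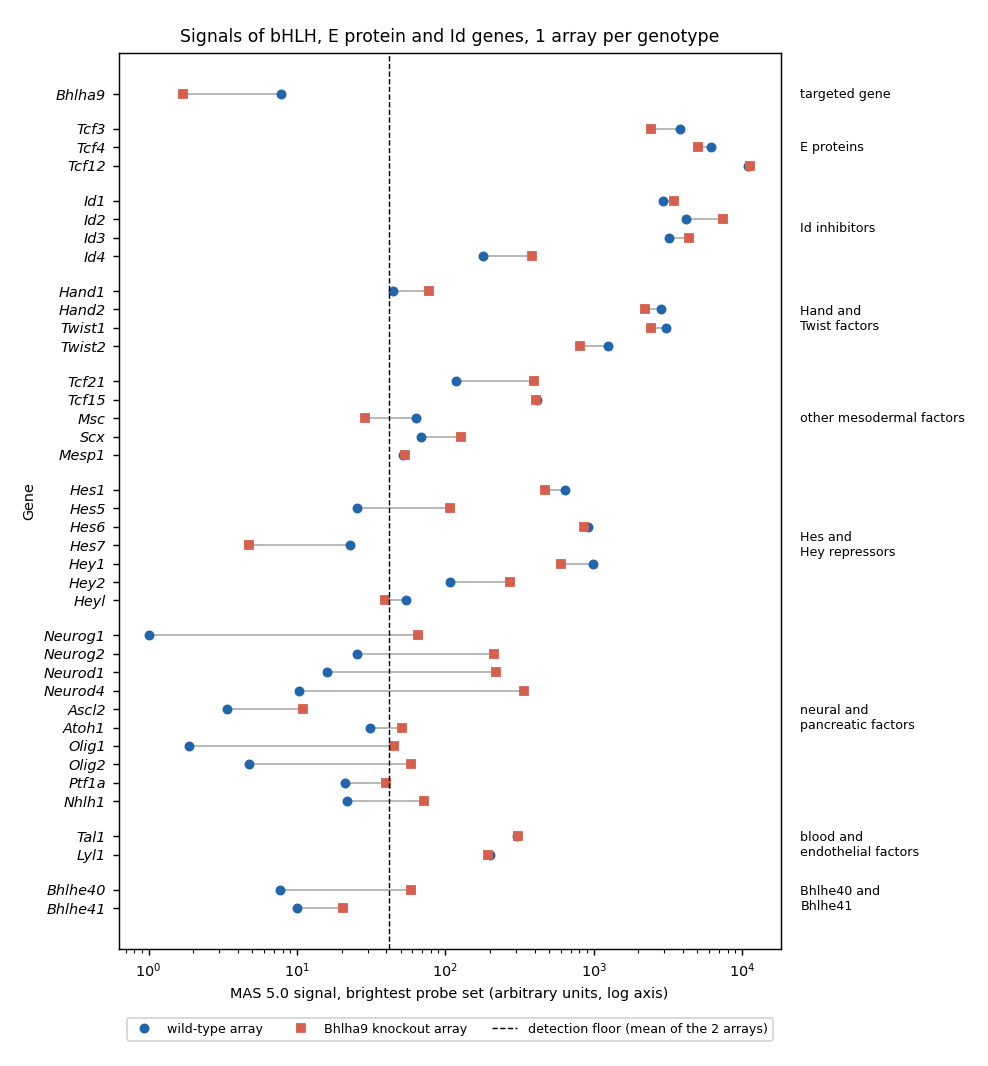
Signal of the brightest probe set of each of the 38 genes on the wild-type array (blue circles) and the Bhlha9 knockout array (red squares), on a log axis in arbitrary units, with the detection floor dashed. All 10 genes of the neural and pancreatic group have their blue circle left of the floor, and 8 have their red square right of it. The E proteins Tcf3, Tcf4 and Tcf12 and the Id genes lie right of the floor on both arrays.

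The 250 bases before the start of the targeted gene and of 4 of the 7 genes at least 2-fold higher are shown here, with E-boxes, Notch-type and BMP-type elements marked because these are the usual DNA contacts of this family and of its inputs. The 4 genes were chosen because their window holds a Notch-type or BMP-type match. The windows of the other 3, Neurog2, Neurod1 and Neurod4, hold neither. Sequences are from RefSeq on GRCm38.p6, and 27 of the 39 symbols had an entry that was used. Capitals mark the E-box CANNTG, which reads the same on both strands, in Bhlha9.
Bhlha9 promoter, chr11:76672220-76672469, plus strand: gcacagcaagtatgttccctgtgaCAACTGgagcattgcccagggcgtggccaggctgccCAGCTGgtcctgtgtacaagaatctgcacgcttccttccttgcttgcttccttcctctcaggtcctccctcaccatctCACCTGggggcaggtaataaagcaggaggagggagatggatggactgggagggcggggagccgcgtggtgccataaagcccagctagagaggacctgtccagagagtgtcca
Capitals mark TGGGAA or its complement TTCCCA, the core bound by the Notch effector RBPJ, in Hey2, Hes5 and Tcf21.
Hey2 promoter, chr10:30842784-30843033, minus strand: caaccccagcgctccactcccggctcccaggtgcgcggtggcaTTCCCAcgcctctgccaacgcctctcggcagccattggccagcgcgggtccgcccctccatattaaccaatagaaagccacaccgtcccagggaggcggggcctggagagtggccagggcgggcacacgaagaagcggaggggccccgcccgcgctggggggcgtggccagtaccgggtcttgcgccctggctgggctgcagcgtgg
Hes5 promoter, chr4:154960673-154960922, plus strand: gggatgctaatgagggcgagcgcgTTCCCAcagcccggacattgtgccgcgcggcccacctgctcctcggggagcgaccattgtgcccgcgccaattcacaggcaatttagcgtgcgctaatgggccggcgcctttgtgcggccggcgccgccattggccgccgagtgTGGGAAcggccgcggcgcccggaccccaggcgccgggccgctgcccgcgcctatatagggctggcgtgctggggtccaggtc
Tcf21 promoter, chr10:22820144-22820393, minus strand: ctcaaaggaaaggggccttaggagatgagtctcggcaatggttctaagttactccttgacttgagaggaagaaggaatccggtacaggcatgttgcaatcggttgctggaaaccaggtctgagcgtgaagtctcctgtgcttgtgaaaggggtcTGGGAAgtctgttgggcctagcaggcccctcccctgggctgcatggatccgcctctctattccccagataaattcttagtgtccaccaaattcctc
Capitals mark GGCGCC, a palindrome of the kind found in BMP-responsive elements of Id genes, in Id4.
Id4 promoter, chr13:48260866-48261115, plus strand: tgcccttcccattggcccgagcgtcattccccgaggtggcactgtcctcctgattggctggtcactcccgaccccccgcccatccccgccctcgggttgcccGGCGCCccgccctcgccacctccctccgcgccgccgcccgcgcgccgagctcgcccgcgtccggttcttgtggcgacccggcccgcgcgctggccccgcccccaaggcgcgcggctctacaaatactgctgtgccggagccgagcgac

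The Bhlha9 window held 3 E-boxes, which began 226, 190 and 112 bases before the start. Hes5 held 2 TGGGAA matches, at 226 and 82 bases, and Hey2 and Tcf21 held 1 each, at 207 and 96 bases. Id4 held 1 GGCGCC, at 148 bases. Only 1 motif is capitalised in each window. Id4 also held a TGGGAA match at 245 bases, and Hes5 also held 4 GGCGCC matches. Hey2 and Hes5 also held 1 E-box each, at 223 and 194 bases, so no motif was confined to the genes it is marked in. Among the first listed starts of the 27 genes, 15 had an E-box, 8 had TGGGAA and 6 had GGCGCC. Of 32851 windows of this length in the whole table, 66.2% had an E-box, 21.6% had TGGGAA and 9.59% had GGCGCC, so letters of this kind are common and a match is only a description.

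Bhlha9, the gene targeted in the knockout, was read by a single probe set, at 7.87 in wild-type and 1.70 in knockout RNA. Both lie under the floor, so the probe set did not check the genotype labels, and where it lies relative to the targeted part was not analysed here. Its neighbours in the annotation were read as well, chosen after the values were seen. Abr, the nearest protein-coding gene on one side, gave 489.9 and 361, a log2 ratio of -0.44. Trarg1, the nearest on the other side, was not detected, at 10.8 and 3.30. The next gene after it, Gosr1, gave 828 and 843, a ratio of 0.03.

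Tcf3, which encodes the E proteins E12 and E47, and Tcf4, which encodes E2-2, read lower on the knockout array, while Tcf12, which encodes HEB, read alike on both. Tcf3 gave 3837 in wild-type and 2456 in knockout RNA, a log2 ratio of -0.64. Its other probe sets gave 1335.5 and 724, and 414 and 187.5, with ratios of -0.88 and -1.14. All 3 Tcf3 probe sets were thus lower on the knockout array by more than the SD between probe sets. Tcf4 gave 6140.2 and 5045, a ratio of -0.28 that is about as large as that SD. Its next 4 probe sets had ratios of -0.33, -0.55, -0.82 and -0.98, and the dimmest, at 78.6 and 88.7, had 0.18. Tcf12 gave 10955 and 11406.5, a ratio of 0.06, and its 4 other probe sets ran from -0.54 to 0.24. The Tcf12 sign turned to -0.07 after cyclic loess and -0.04 after quantile normalization. Over the 3 genes, 10 of 14 probe sets were lower on the knockout array and 4 were higher. None of the 3 genes reached 2-fold by its brightest probe set.

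Id1, Id2, Id3 and Id4, whose products sequester E proteins, all had positive ratios by their brightest probe sets, with a median of 0.64. Id1 gave 2932 and 3494, a log2 ratio of 0.25 within the SD between probe sets. Id3 gave 3233 and 4409.8, a ratio of 0.45. Id2 gave 4203 and 7469, a ratio of 0.83, and a further probe set gave 2684 and 3281, a ratio of 0.29. The last Id2 probe set went the other way, from 741 to 319, a ratio of -1.22. Which part of the transcript it reads was not analysed here, so the direction for Id2 depends on the probe set. Id4, the member of the family most tied to neural progenitors, gave 179 and 383, a ratio of 1.10. Its second probe set gave 188 and 366, a ratio of 0.96, while its dimmest one gave 91.3 and 76.9, a ratio of -0.25. Both with the median over its probe sets and with a pseudocount of 32 in place of the floor, Id4 stood just under 2-fold, at 0.96 and 0.97.

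The genes that feed BMP signals into Id transcription had ratios of both signs. Of 19 listed BMP ligands, receptors, Smads, antagonists and targets, 17 were detected on both arrays, 7 with positive and 10 with negative ratios, and the median was -0.05. Bmp4, a main BMP ligand of the limb bud, gave 2862 and 1489, a ratio of -0.94. The homeobox target Msx1 and the antagonist Grem1 were the 2 genes at least 2-fold lower, at -1.37 and -1.30, and 0 were at least 2-fold higher. Over all genes detected on both arrays, 2.51% were that much lower and 2.87% higher. The receptors Bmpr1a, Bmpr1b and Bmpr2 had ratios between 0.15 and 0.23, and the inhibitory Smads Smad6 and Smad7 stood at 0.00 and -0.28. Bambi, a BMP target that dampens the signal, stood at 0.45. Neural tube and neuron genes had median ratios of 0.76 over 7 genes and 1.79 over 11. Their part in the Id values was not tested. In tissue RNA, fewer cells of a type and less RNA per cell cannot be told apart.

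**Figure D2:**
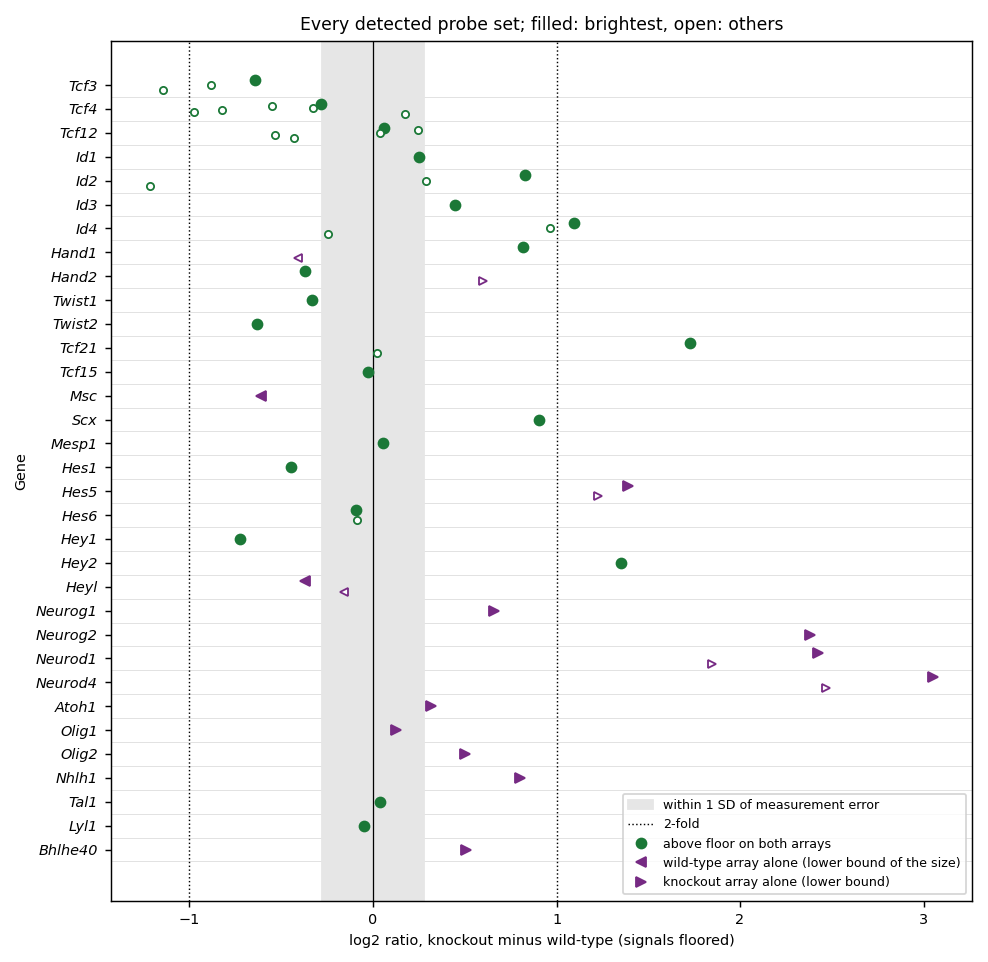
The log2 ratio, knockout minus wild-type, of every detected probe set of each gene, with the brightest filled and the others open. Circles were above the floor on both arrays and triangles on 1 array only, pointing toward larger differences. The shaded band is 1 SD for a log2 ratio, 0.28, derived from the disagreement between probe sets, and the dotted lines mark 2-fold. All Tcf3 probe sets lie left of the band, whereas those of Id2 and Id4 fall on both sides of 0.

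Hand2, Twist1 and Twist2, the bHLH factors of limb mesenchyme, read slightly lower on the knockout array by their brightest probe sets. Hand2 gave 2857 and 2212, a log2 ratio of -0.37, and Twist1 gave 3059.6 and 2434, a ratio of -0.33. Twist2, more tied to dermal mesenchyme, gave 1259 and 811, a ratio of -0.63. None of the 3 reached 2-fold. A dim Hand2 probe set was at 11.5 and 62.4, detected on the knockout array alone, and the last was under the floor on both. With the median over detected probe sets the Hand2 ratio turned to 0.11. The 13 limb mesenchyme genes detected on both arrays, among them Prrx1 at -0.33, Lhx9 at -1.34 and Lmx1b at -1.92, had 12 negative ratios, so Hand2 and Twist1 were nearer to 0 than the median of -0.86 of that list. Hand1, a factor of heart and lateral mesoderm, had no settled direction. One of its probe sets gave 44.2 and 78.0, a ratio of 0.82, and the other gave 55.4 and 4.97, at least 1.33-fold lower, with every one of these signals near or under the floor.

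By brightest probe sets, Tcf21 had the largest ratio of the 21 genes detected on both arrays. It encodes a factor of visceral organ mesenchyme, epicardium and facial muscle. Its brightest probe set gave 119 in wild-type and 394 in knockout RNA, 3.31-fold higher and a log2 ratio of 1.73. Its other probe set gave 51.4 and 52.2, a ratio of 0.02 close to the floor, and the median of both was 0.88, below Hey2 at 1.35 and Id4 at 0.96 by the same rule. Markers of the mesothelium and coelomic lining moved in part alike, with Wt1 at 118 and 476, Upk3b at 183 and 429, and Gata4 at 23.6 and 89.1. That list of 9 genes had 3 at least 2-fold higher and 1 lower of 8 detected. Over all genes detected on at least 1 array, the shares were 4.15% and 2.65%. The list had a median of 0.26 over 7 genes, and summed signals of 8548 and 5525. Lhx9, also a limb mesenchyme gene, contributed most to these sums. The part of this tissue in the Tcf21 value was not tested.

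The remaining mesodermal factors differed little or were dim. Scx, the marker of tendon progenitors, gave 68.3 and 128, a log2 ratio of 0.91, by its detected probe set. It reached 2-fold only after cyclic loess, at 1.01. Tcf15, a somite factor also known as paraxis, gave 415 and 408, a ratio of -0.02 that turned positive under all 3 other scalings. The somite and sclerotome list had a median of 0.59 over 8 genes. Mesp1, a factor of early cardiac and paraxial mesoderm, was just above the floor at 51.8 and 53.8. Msc, which encodes musculin of muscle precursors, gave 63.8 in wild-type RNA and 28.9, under the floor, in knockout RNA, at least 1.53-fold lower.

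The Hes and Hey repressors split. Hey2, a Notch target of heart and arterial endothelium, gave 107 and 274, a log2 ratio of 1.35 or 2.55-fold higher, which came to 0.70 with the floor at the 60th percentile. Hey1, its close relative, gave 997 and 603, a ratio of -0.73, and Hes1, a Notch target in many progenitors, gave 642 and 471, a ratio of -0.45. Hes6, which opposes Hes1, gave 921 and 865, with -0.09 by both of its probe sets. Hes5, the Notch target of neural progenitors, gave 25.5, under the floor, in wild-type RNA and 108 in knockout RNA, at least 2.62-fold higher. Its other probe set gave 28.2 and 96.4, at least 2.34-fold higher. Heyl was detected on the wild-type array alone, at 54.0 against 39.4, at least 1.29-fold lower, and Hes7, the somite clock gene, was not detected, at 22.9 and 4.78. Hey1 and Hes1 were thus lower while Hey2 and Hes5 were higher on the knockout array.

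The Notch pathway genes had ratios of both signs. Of 20 genes on the array, 18 were detected on both, 7 with positive and 11 with negative ratios. Their median was -0.23, with 1 at least 2-fold higher and 0 lower, beside 2.87% and 2.51% of all genes detected on both. That gene was Dll3, a Notch ligand of presomitic mesoderm and newborn neurons, at 62.6 and 165, a ratio of 1.40. Dll1, another ligand of both tissues, stood at 0.86, and Notch1 at 0.45. Notch3 and Notch4, receptors of vessel wall and endothelium, stood at -0.67 and -0.45, and the Hes corepressor gene Tle2 at -0.92. Endothelial genes had a median of -0.43 over 11, and the vascular endothelial growth factor receptor gene Kdr gave 1326 and 625. Heart muscle genes differed in sign, with Myl4 at 3.47, Tnnt2 at 2.23 and Tbx20 at -2.40, and Nkx2-5 was under the floor on both arrays. Their part in the Hey1 and Hey2 values was not tested.

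**Figure D3:**
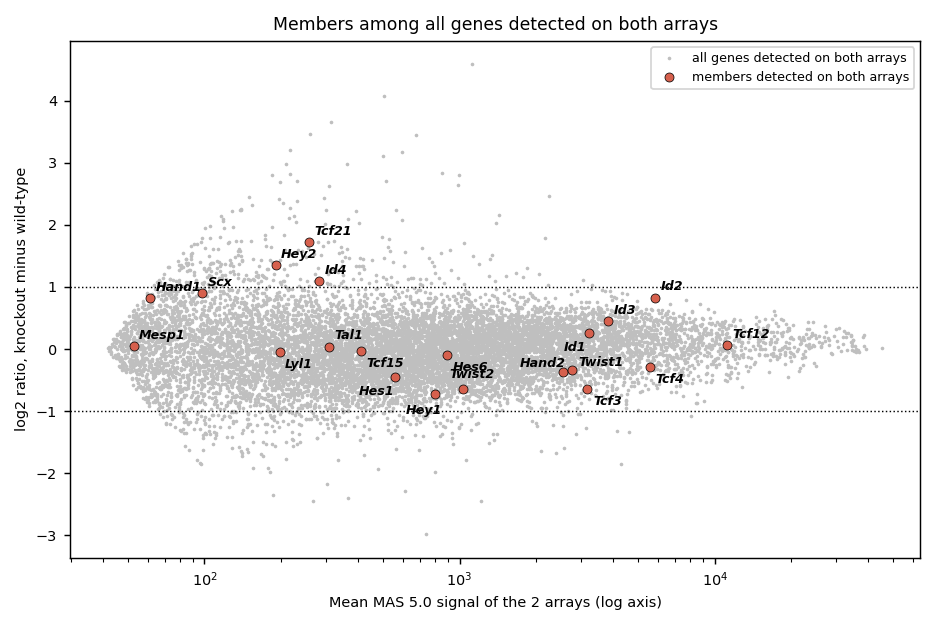
Log2 ratio, knockout minus wild-type, against the mean signal of the 2 arrays (log axis) for the 11491 genes detected on both (grey) and the 21 listed genes among them (red, named). The dotted lines mark 2-fold. Tcf21, Hey2 and Id4 lie above the upper line at signals where the grey cloud is wide, and the brighter E protein and Id genes lie between the lines.

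Signal level bears on these ratios. Tcf21, Hey2 and Id4 fell between the 20th and 40th percentiles of mean signal among genes detected on both arrays, where 4.53% of genes were at least 2-fold higher and the robust SD of the ratio over genes was 0.54. Above the 80th percentile, a range that held Tcf3, Tcf4, Tcf12, Id1, Id2, Id3, Hand2 and Twist1, 0.217% of genes were at least 2-fold higher and 0.696% at least 2-fold lower, and the robust SD was 0.34. The ratio of Id2, 0.83, and that of Tcf3, -0.64, were the farthest from 0 of those 8. These spreads include any true differences. Among the 7 listed genes with 2 or more probe sets above the floor on both arrays, the brightest pair had the same sign in 7 of 7, against 69.4% over all such genes. All of their detected probe sets had 1 sign in 3 of the 7, namely Tcf3, Tcf21 and Hes6.

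The proneural factors and the others of the neural and pancreatic group were found, where detected, on the knockout array alone. None of the 10 genes with a probe set was detected on the wild-type array, where the signals of their brightest probe sets ran from 1.002 to 31.2, and 8 were detected on the knockout array. Neurod4, a factor of differentiating neurons, gave 10.3 in wild-type and 342 in knockout RNA, at least 8.29-fold higher. Its second probe set gave 0.27 and 228, at least 5.53-fold higher, and its last was under the floor on both. Neurod1, which drives neuronal differentiation, gave 16.0 and 221, at least 5.37-fold higher, and 24.9 and 148 by its other probe set. Neurog2, a proneural factor of spinal cord and sensory ganglia, gave 25.4 and 214, at least 5.20-fold higher. These 3 genes were the farthest above the floor of the 8.

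The other detected genes of the neural and pancreatic group were only slightly above the floor on the knockout array. Nhlh1, of newborn neurons, gave 21.9 and 71.8, and Neurog1, the proneural factor of sensory ganglia, gave 1.002 and 65.2. The other Neurog1 probe set gave 13.7 and 2.79, under the floor on both arrays. The motor neuron and oligodendrocyte factor Olig2 gave 4.73 and 58.3, its relative Olig1 gave 1.88 and 44.9, and Atoh1, of the dorsal neural tube, gave 31.2 and 51.3. Their bounds ran from at least 1.09-fold for Olig1 to at least 1.74-fold for Nhlh1. Ascl2 was not detected, at 3.38 and 11.0, and neither was Ptf1a, of pancreas and dorsal spinal cord, at 21.0 and 40.1.

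Many but not all neural markers were higher on the same array. Among 13 neuron genes, 9 stood at 2-fold or more higher and 0 lower. Over all genes detected on at least 1 array, the shares were 4.15% and 2.65%. Of the 11 on both, 7 read that much higher and 0 lower, beside 2.87% and 2.51% of all genes detected on both. The neurofilament gene Nefl was at 80.9 and 640 and the tubulin gene Tubb3 at 74.6 and 359. The neuronal genes Dcx and Gap43 stood at -0.54 and 0.16. Among the 12 neural tube markers detected, 5 stood at 2-fold or more higher and 0 lower, and of the 7 on both arrays 3 and 0. The 2 neuron and 5 neural tube genes detected on the knockout array alone could not have a negative ratio. Sox2 gave 136 and 890 and Pax6 gave 6.72 and 146, while the progenitor genes Zic2 and Nes stood at -0.89 and -0.61. The summed signal of the 14 neural tube genes was 2245 in wild-type and 5266 in knockout RNA. That of the 10 genes of the neural and pancreatic bHLH group was 137 and 1119.7. Among 6 detected neural crest and glial genes, Erbb3, Ednrb and Tfap2b read 2-fold or more above wild type and 0 below it, and the median ratio over 5 was 1.24, while Sox10 gave 76.6 and 46.5. The part of neural tissue in the readings of the neural bHLH genes was not tested.

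Tal1 and Lyl1, the bHLH factors of blood and endothelium, did not differ beyond the SD between probe sets. Tal1 gave 302 and 311, a log2 ratio of 0.04, and Lyl1 gave 200.3 and 194, a ratio of -0.05 whose sign turned under cyclic loess and quantile normalization. Red cell genes on the same arrays had a median of 0.33 over 10, with the erythroid factor Klf1 at 222 and 451, whereas endothelial genes had a median of -0.43. Bhlhe40, a repressor of the clock and of stress responses, was detected on the knockout array alone at 58.4, against 7.66, at least 1.42-fold higher. Its relative Bhlhe41 was under the floor on both arrays.

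Other genes of the same bHLH classes, from a list of 30 with 26 on the array, had 6 detected on the knockout array alone, 2 on the wild-type array alone, 5 on both and 13 on neither. Of the 13 detected, 6 were at least 2-fold higher and 1 lower, beside 4.15% and 2.65% of all genes detected on at least 1 array. Genes detected on the knockout array alone could not have a negative ratio. Among the 5 on both, 2 were at least 2-fold higher and 1 lower, beside 2.87% and 2.51% of all such genes. The myogenic factors Myog, Myf5 and Myod1 gave 89.1 and 369, 119 and 290.4, and 9.04 and 89.4. The neuronal factor Nhlh2 gave 1.17 and 356, at least 8.65-fold higher, and the dorsal neural tube factor Olig3 gave 6.25 and 90.9. Atoh8 was the lower gene, at 149 and 59.4, a log2 ratio of -1.32.

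**Figure D4:**
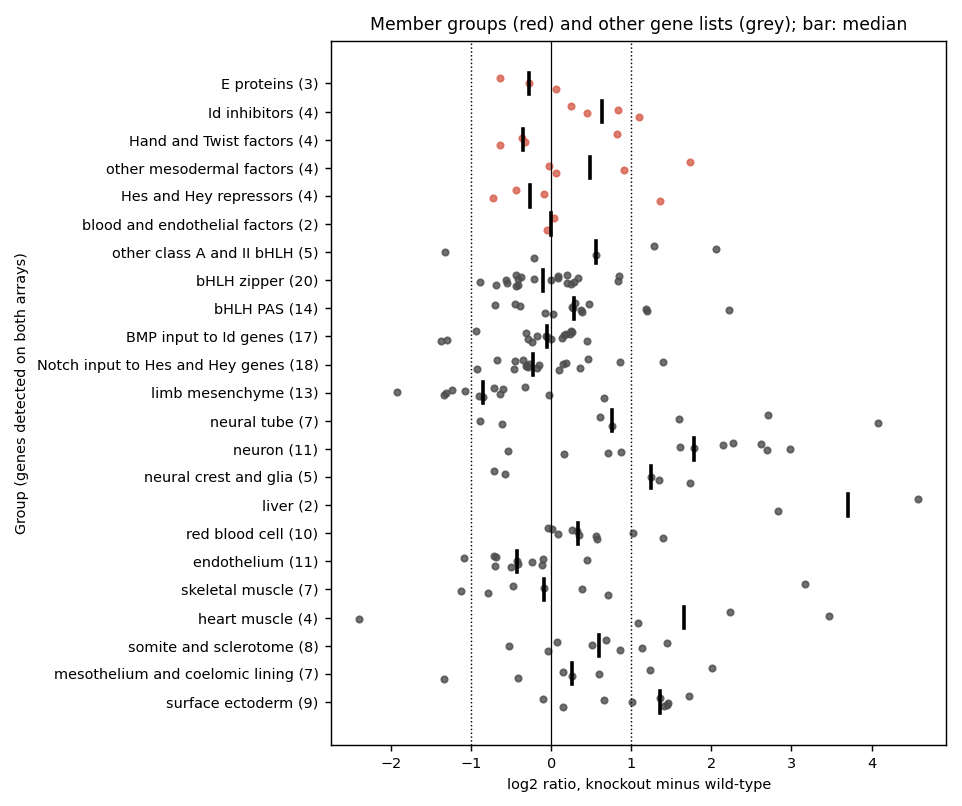
Log2 ratios, knockout minus wild-type, of the genes detected on both arrays in each group of listed bHLH, E protein and Id genes (red) and in each comparison list (grey), with the number of genes in brackets and the median as a bar. Genes at the floor on 1 array are left out, so the neural and pancreatic bHLH group does not appear. The Id genes lie right of 0, and the limb mesenchyme list lies left of 0 except for Meis2 at 0.65.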

How the data were processed

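Per the series' design text, RNA was hybridised to Affymetrix Mouse Genome 430 2.0 arrays and summarised with MAS 5.0, and per the labels' protocols 200 ng of total RNA was biotinylated with a 3′ IVT kit. The deposited values are intensities on a linear scale, 1 per probe set and array, which the authors scaled per array to a 2% trimmed mean of 500.0. The scaling was checked on the values. Which array is the knockout was taken from the labels and could not be checked on the values. Symbols came from the platform annotation and were matched by Entrez identifier to RefSeq genes of GRCm38.p6. Of 34945 single-symbol probe sets 34741 matched. The 932 probe sets with several symbols were not used. Listed genes were all named, in order of their role, with every detected probe set of those the results turn on. From the other lists, up to 4 genes past 2-fold were named, and further ones as examples after their values were seen. The members and lists were chosen with earlier results of these data known. Bmal1 was read under the symbol Arntl. Alternatives were 3 other scalings, 2 other floors, 32 added to each signal in place of a floor, 2 other rules for the probe set and a 1.5-fold threshold. The steps were tested on simulated data in which only genes well above the floor were changed. Changes in genes as dim as Tcf21, Hey2 and Id4, and ratios bounded by the floor, were not covered. Python 3.11.15, numpy 2.4.6, pandas 2.3.3, matplotlib 3.10.9, R 4.3.3 and limma 3.58.1 were used. The number of arrays, 1 per group, limits the precision.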

Additional observations from a re-analysis of the deposited data

How the results depend on the processing

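By the main setting 7 listed genes were 2-fold or more higher and 0 lower, beside 4.15% and 2.65% of all genes. The higher count was 12 at a 1.5-fold threshold (11.2% of all genes), 13 when the floor was put at the 20th percentile (11.3%) and 3 when it was put at the 60th (1.64%), where 21 instead of 33 genes were detected. It was 5 with the median over detected probe sets (3.62%), without Id4 and Tcf21, and 10 with a pseudocount (4.63%), without Id4. The lower count was 4 at 1.5-fold (Tcf3, Twist2, Msc and Hey1), where 11.7% of all genes were lower, 2 with the floor at the 20th percentile (Msc and Hes7), where 8.26% were, and 1 with unique probe sets only (Id2, at -1.22). Median centring, quantile normalization and cyclic loess gave 7, 7 and 8 higher and 0 lower. Of all genes, 4.46%, 4.71% and 4.88% were higher there and 2.35%, 2.09% and 1.99% lower. Over all genes the share of 2-fold calls that were higher was 61.0% as deposited, 65.5%, 69.3% and 71.0%. The median ratio of the listed genes detected on both arrays ran from -0.07 to 0.25 over the alternatives. Ratios bounded by the floor moved with it, among them Neurod4 from 1.02 to 5.06, Neurod1 from 0.39 to 3.79, Neurog2 from 0.35 to 3.08 and Bhlhe40 from 0.50 to 2.90. No paired analysis was possible because each genotype had 1 array, and no array could be left out.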

Other observations

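The bHLH zipper genes, which bind E-box-like sites through a separate dimer network around Max and Myc, had ratios of both signs. Of 22 genes, 20 passed the floor on both arrays, where their median log2 ratio was -0.11, with 9 ratios positive and 11 negative. None of these 20 reached 2-fold in either direction, beside 2.87% higher and 2.51% lower over all genes detected on both. Mycn, the Myc gene of limb bud mesenchyme, gave 5962 in wild-type and 4376 in knockout RNA, a ratio of -0.45. Usf1 had the lowest ratio at -0.88 and Mycl the highest at 0.84. Tfec was detected on the knockout array alone, at 92.8, at least 2.25-fold higher.

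The bHLH-PAS genes, which include sensors of oxygen and of xenobiotics, had a median of 0.28 over 14 genes detected on both arrays. Of these 14, 3 were at least 2-fold higher and 0 lower, beside 2.87% and 2.51% of all genes detected on both. Sim1, a factor of neurons, somite and kidney, gave 45.5 and 212, a ratio of 2.22. The aryl hydrocarbon receptor gene Ahr gave 73.1 and 168, and Npas3, of neural tissue, gave 65.1 and 148. All 3 were dim on the wild-type array. Hif1a gave 5807 and 7105, a ratio of 0.29, and its partner Arnt gave 967 and 595, a ratio of -0.70.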
